A study of Mus musculus with 15 samples.

Results

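The cytochrome P450 genes of families 1 to 4 were followed through 4 transgenic liver models and wild-type liver of male FVB/NJ mice. Members were the gene symbols of these families, leaving out Cyp1a2, Cyp2e1, Cyp2f2, Cyp2b9, Cyp2b10 and Cyp2b13 by name, with a mean of at least 1 CPM (gene counts scaled to a library total of 1000000) over all 15 libraries. Of 24411 genes listed, 85 carried a matching symbol, 6 were left out by name, 25 fell below 1 CPM (5 of them without a count in any library), and 54 were members. Just inside the limit stood Cyp3a44 (1.03 CPM) and Cyp4a31 (1.08 CPM), and just outside it Cyp3a41a (0.495 CPM) and Cyp2c53-ps (0.340 CPM). The 54 members belonged to 15 subfamilies, of which 7 had at least 3 members. All 54 passed the low-count filter and were among the 14098 genes tested.

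Polyadenylated RNA from fresh frozen liver was sequenced in 5 groups of 3 libraries. The CTNNB1_NFE2L2_MET livers carried S45Y mutant β-catenin (CTNNB1), G31A mutant NRF2 (NFE2L2) and human MET. The CTNNB1_MET livers carried S45Y-CTNNB1 with human MET, the CTNNB1_NFE2L2 livers S45Y-CTNNB1 with G31A-NFE2L2, and the NFE2L2_MET livers G31A-NFE2L2 with human MET. The WT livers were wild-type FVB liver without a transgene. The labels name no vector, promoter, age or time after delivery, so what other treatment the models shared is not known, and they do not say how much of each sample was tumour. The labels do not tie libraries to individual mice, and p-values here reflect the spread among the 3 libraries of a group, which may be technical.

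P450 enzymes are haem proteins of the endoplasmic reticulum that insert 1 oxygen atom into their substrates with electrons passed on by P450 oxidoreductase. Families 1 to 3 handle drugs, toxins, steroids, bile acids and polyunsaturated fatty acids, and family 4 oxidises the far end of fatty acids and eicosanoids. Hepatocytes make most of them, under the receptor AHR and under nuclear receptors such as CAR, PXR and PPARα. In mice several are made mainly by males or mainly by females under the pattern of growth hormone release.

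The libraries held 14084343 to 20702618 gene counts. The members took 2.10 to 2.86% of the counts in CTNNB1_NFE2L2_MET, 1.10 to 1.30% in CTNNB1_MET, 3.93 to 4.44% in CTNNB1_NFE2L2, 1.92 to 2.70% in NFE2L2_MET and 1.28 to 2.06% in WT. Unmapped reads made up 8.69 to 11.2%, 15.8 to 19.1%, 9.71 to 11.8% and 12.7 to 14.2% of reads in the same 4 models, and 19.8 to 25.9% in WT. The summed level of 7 hepatocyte markers ranged over 67552 to 73412 CPM in CTNNB1_NFE2L2_MET, 131206 to 144531 CPM in CTNNB1_MET, 29898 to 38559 CPM in CTNNB1_NFE2L2, 138359 to 183628 CPM in NFE2L2_MET and 83417 to 105162 CPM in WT. The 6 Kupffer cell and macrophage markers summed to 401 to 621 CPM, 268 to 342 CPM, 390 to 569 CPM and 358 to 444 CPM in those models, against 194 to 225 CPM in WT. In bulk liver, fewer hepatocytes and less RNA of a gene in each hepatocyte cannot be told apart, and the part of these shifts in the results was not tested. The Y-linked gene Ddx3y stood at 36.7 to 69.4 CPM and Xist at 0.222 to 1.78 CPM over all libraries, as the male label has it.

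Close copies share reads. Of 53 members with an annotated transcript, 6 shared no run of 50 bases with any other gene, 44 shared some but under 50% of their runs, and 3 shared 50% or more (Cyp2c40, Cyp2c69 and Cyp2c67). Reads that fit several genes were not counted for any gene (4.81 to 6.45% of reads per library), so levels of such copies are low estimates and the split between close copies is uncertain. Counts did not use strand, so overlapping genes on opposite strands were not separated.

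More members fell than rose in CTNNB1_NFE2L2_MET livers against WT. In that comparison 33 of 54 members were lower, where 23.4% of all genes tested were lower, and 8 were higher, where 26.5% of all genes were higher (edgeR quasi-likelihood test, adjusted p under 0.05, as in all calls here). In CTNNB1_NFE2L2 against WT 26 members were lower and 10 higher, with 24.2% and 24.5% of all genes. The CTNNB1_MET model against WT gave 11 lower and 12 higher members, with 6.22% and 11.0% of all genes. NFE2L2_MET against WT gave 15 lower and 8 higher members, with 9.89% and 13.5% of all genes. The median log2 fold change over the 54 members was -0.94, -0.50, -0.26 and -0.39 in these 4 comparisons, and over all genes it was between -0.02 and 0.03 in each of the 7 comparisons made. Some members reached the 1 CPM limit only through 1 group, where they had to be high: Cyp2s1 through CTNNB1_NFE2L2_MET, Cyp2c69, Cyp3a16, Cyp3a44 and Cyp4a31 through CTNNB1_MET, and Cyp2d12 through CTNNB1_NFE2L2. With those of the group tested set aside, 7 members were higher and 33 lower in CTNNB1_NFE2L2_MET, 8 higher and 11 lower in CTNNB1_MET, and 9 higher and 26 lower in CTNNB1_NFE2L2, each against WT. The 4 comparisons share the WT libraries. Counts of lower members moved most with single libraries in 2 of them. In CTNNB1_MET against WT, 6, 4 and 6 members were lower without WT replicate 1, CTNNB1_MET replicate 1 and CTNNB1_MET replicate 2. In NFE2L2_MET against WT, 8, 7 and 7 were lower without WT replicate 1, NFE2L2_MET replicate 2 and NFE2L2_MET replicate 3.

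Each transgene was also read as added to a background that held the other pair, by setting the same CTNNB1_NFE2L2_MET libraries against each double model. These are comparisons of separate models, so the added transgene cannot be told apart from other differences between them. With NFE2L2 added (against CTNNB1_MET), 33 members were lower and 5 higher, where 15.4% and 18.4% of all genes were lower and higher. With CTNNB1 added (against NFE2L2_MET), 25 members were lower and 7 higher, with 14.3% and 16.4% of all genes. With MET added (against CTNNB1_NFE2L2), 19 members were lower and 6 higher, with 11.8% and 13.1% of all genes. Without the members that passed through either group compared, 29, 25 and 18 were lower with NFE2L2, CTNNB1 and MET added, and 4, 6 and 5 higher. Scaling to total counts, which moved the median of all genes to 0.38 in the comparison with NFE2L2_MET, left 16 members lower and 8 higher there. Group means put 30 of the 54 members lowest in CTNNB1_NFE2L2_MET, and 26 highest in WT.

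**Figure D1:**
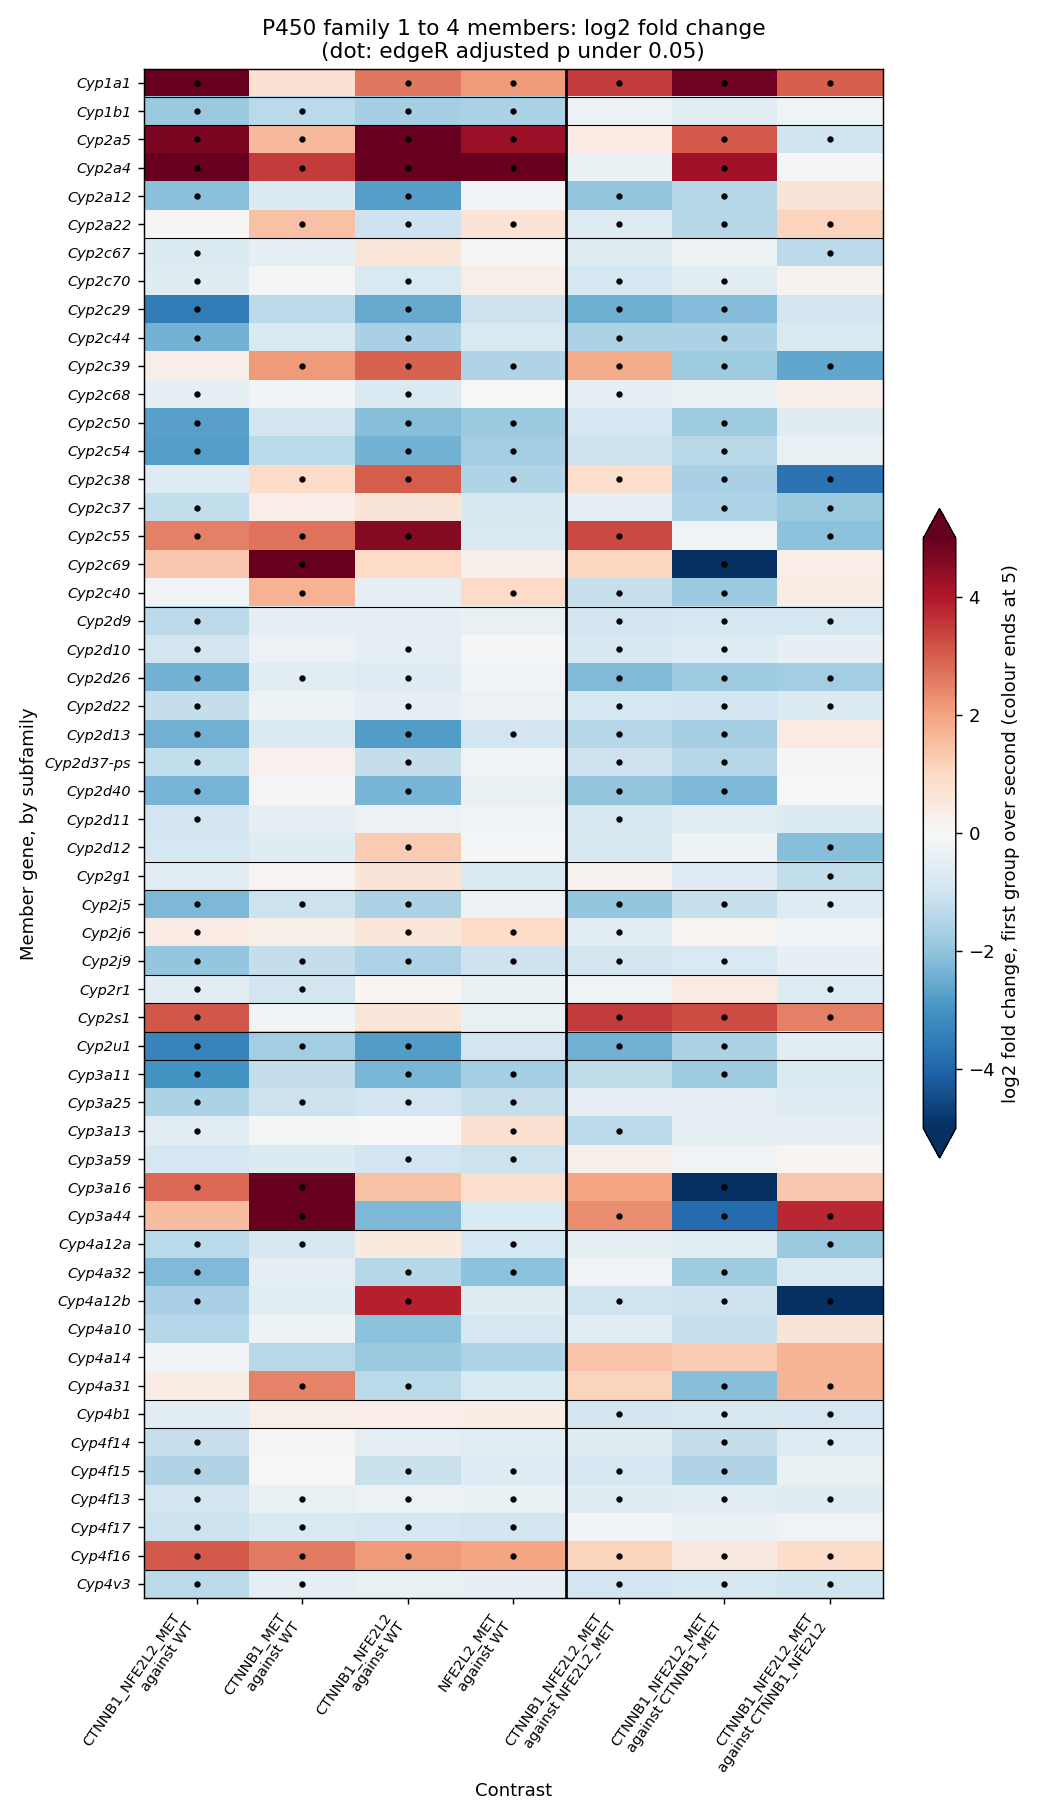
Log2 fold changes of the 54 members, by subfamily (rows), in 7 comparisons (columns, first group over second). Blue is lower, red is higher, colours end at a log2 value of 5, and a dot marks adjusted p under 0.05. The first column holds 33 lower and 8 higher members, and the reds with a dot there are Cyp1a1, Cyp2a4, Cyp2a5, Cyp2c55, Cyp2s1, Cyp3a16, Cyp4f16 and Cyp2j6.

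The falls lay mostly among members with a mean of at least 10 CPM. Of the 22 members with a mean of at least 100 CPM over all libraries, 19 were lower and 2 higher (Cyp2a4 and Cyp2a5) in CTNNB1_NFE2L2_MET against WT. Of the 18 members between 10 and 100 CPM, 11 were lower and 3 higher, and of the 14 under 10 CPM, 3 were lower and 3 higher. Of all genes at any level 23.4% were lower and 26.5% higher, near the shares of the members under 10 CPM. Shares of all genes at matched levels were not computed. Per kilobase of exon, the most abundant members in WT liver were Cyp3a11 (800.1 CPM per kb), Cyp2d10 (651), Cyp2d9 (632), Cyp2c29 (480.1) and Cyp2d26 (452), among the 53 members with an annotated length.

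Summed by subfamily, the levels in CTNNB1_NFE2L2_MET livers were the lowest of the 5 groups for Cyp2c, Cyp2d, Cyp2j, Cyp3a, Cyp4a and Cyp4f. The Cyp3a members summed to 664, 781 and 1109 CPM in CTNNB1_NFE2L2_MET, 1818, 2816 and 2302 in CTNNB1_MET, 1057, 1338 and 1606 in CTNNB1_NFE2L2, 2626, 1196 and 1320.0 in NFE2L2_MET, and 4724, 2454 and 7733 CPM in WT. No CTNNB1_NFE2L2_MET library reached the lowest WT library. The Cyp2d members summed to 1766 ± 371 CPM in CTNNB1_NFE2L2_MET, 3493 ± 268 CPM in CTNNB1_MET, 2997 ± 346 CPM in CTNNB1_NFE2L2, 3802 ± 192 CPM in NFE2L2_MET and 4687 ± 675 CPM in WT (SD, n = 3 each). The Cyp2c sums followed a like order, at 1392 ± 396, 2706 ± 316, 2610.4 ± 367 and 2855 ± 223 CPM in the same 4 models and 3983 ± 591 CPM in WT. Cyp2a stood apart, with 17647 ± 2645 CPM in CTNNB1_NFE2L2_MET, 2251 ± 289 CPM in CTNNB1_MET, 30012 ± 2848 CPM in CTNNB1_NFE2L2, 16701 ± 3795 CPM in NFE2L2_MET and 1312 ± 343 CPM in WT. These sums are descriptions and were not tested.

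**Figure D2:**
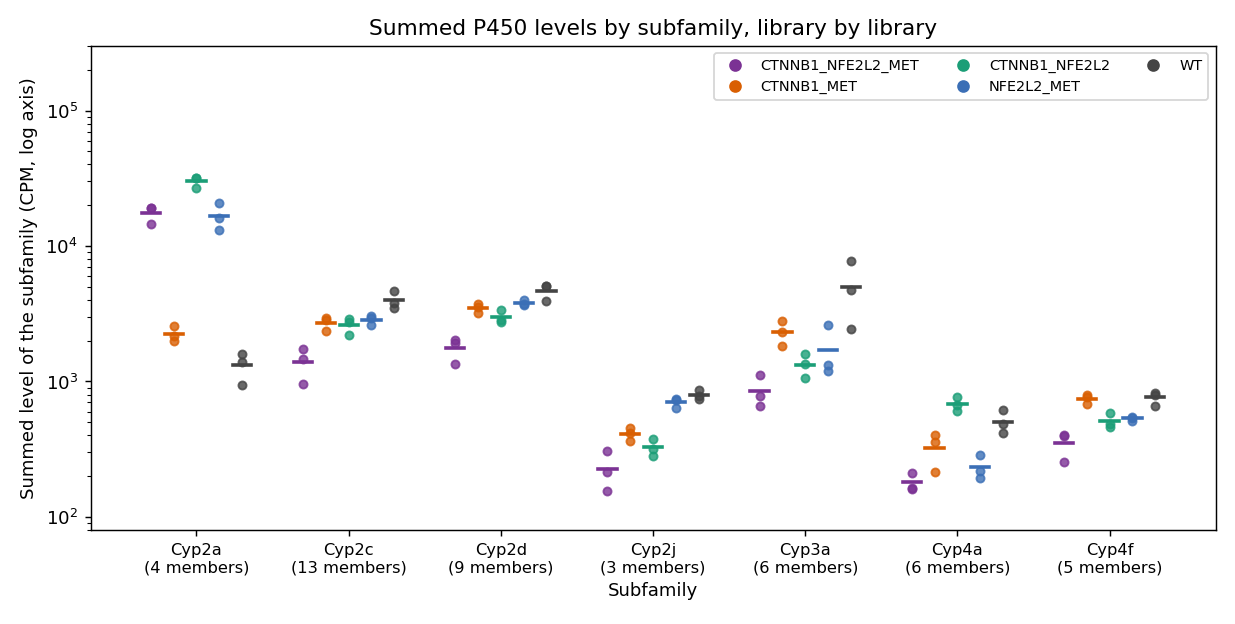
Summed CPM (log axis) of the 7 subfamilies with at least 3 members. Points are libraries, lines are means of 3. Cyp2a sums in the 3 groups with G31A-NFE2L2 lie above all other libraries, while the CTNNB1_NFE2L2_MET means of the other subfamilies are the lowest.

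Cyp1a1, which oxidises planar aromatic hydrocarbons and is the classical target of the aryl hydrocarbon receptor AHR, was high in the livers with all 3 transgenes. Its gene lies on chromosome 9, 57687928 to 57703824 (GRCm38, the mm10 assembly, as for all coordinates here). A stretch of its promoter is shown because AHR binds with ARNT at the xenobiotic response element, whose core GCGTG is in capitals. The stretch is chr9:57697463-57697572 on the plus strand, 150 to 41 bases before the RefSeq GRCm38.p6 start.
Cyp1a1: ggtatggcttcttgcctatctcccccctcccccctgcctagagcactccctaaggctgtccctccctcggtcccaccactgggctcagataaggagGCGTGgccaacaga
The core was searched on both strands and stands 54 bases before the start, and 28.2% of 32851 RefSeq promoters hold it within 250 bases before their start. It is a match of letters only.

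Counts of Cyp1a1 came to 120.3, 64.1 and 97.2 CPM in CTNNB1_NFE2L2_MET, 3.74, 3.40 and 2.51 in CTNNB1_MET, 11.0, 13.0 and 11.4 in CTNNB1_NFE2L2, 9.84, 5.39 and 9.68 in NFE2L2_MET, and 2.01, 1.31 and 2.37 CPM in WT. Every CTNNB1_NFE2L2_MET library stood above every other library. The libraries of each double model stood above WT, those of CTNNB1_MET narrowly (lowest 2.51 CPM, against 2.37 CPM in the highest WT library). It rose 49.6-fold in CTNNB1_NFE2L2_MET against WT (5.63 ± 0.31, adjusted p = 1.13e-08). Smaller rises against WT were seen in CTNNB1_NFE2L2 (2.64 ± 0.31, adjusted p = 1.02e-05) and NFE2L2_MET (2.14 ± 0.32, adjusted p = 3.06e-04), while CTNNB1_MET did not pass (0.76 ± 0.35, adjusted p = 0.151). CTNNB1_NFE2L2_MET exceeded each double model, by 3.49 ± 0.26, adjusted p = 4.98e-07 against NFE2L2_MET, by 4.87 ± 0.29, adjusted p = 5.91e-08 against CTNNB1_MET and by 2.99 ± 0.25, adjusted p = 4.95e-06 against CTNNB1_NFE2L2. The receptor gene Ahr stood at 64.2 ± 14.2, 31.03 ± 3.43, 60.6 ± 8.79 and 13.1 ± 0.690 CPM in CTNNB1_NFE2L2_MET, CTNNB1_MET, CTNNB1_NFE2L2 and NFE2L2_MET and at 23.9 ± 3.86 CPM in WT (SD, n = 3 each).

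Cyp2s1, an epithelial P450 that also responds to AHR, was called only in comparisons that involve CTNNB1_NFE2L2_MET among the 7 made, the group through which it reached the 1 CPM limit. It measured 7.83, 5.05 and 3.55 CPM in CTNNB1_NFE2L2_MET, 0.490, 0.779 and 0.470 in CTNNB1_MET, 0.966, 0.888 and 1.0004 in CTNNB1_NFE2L2, 0.471, 0.333 and 0.630 in NFE2L2_MET, and 0.791, 0.593 and 0.513 CPM in WT. All 3 CTNNB1_NFE2L2_MET libraries lay above the other 12. The rise was 3.11 ± 0.34, adjusted p = 3.11e-06 against WT, 3.48 ± 0.35, adjusted p = 3.84e-06 against NFE2L2_MET, 3.24 ± 0.35, adjusted p = 6.76e-06 against CTNNB1_MET and 2.52 ± 0.32, adjusted p = 8.71e-05 against CTNNB1_NFE2L2. Cyp1b1, known from mesenchymal cells as an AHR-responsive oxidase of steroids and hydrocarbons, moved the other way. Its levels were 1.59, 1.59 and 1.61 CPM in CTNNB1_NFE2L2_MET, 1.84, 2.27 and 2.82 in CTNNB1_MET, 2.42, 2.09 and 1.06 in CTNNB1_NFE2L2, 2.48, 1.66 and 1.72 in NFE2L2_MET, and 6.97, 8.60 and 1.92 CPM in WT. Against WT it fell in CTNNB1_NFE2L2_MET (-1.87 ± 0.43, adjusted p = 0.00200), CTNNB1_MET (-1.33 ± 0.42, adjusted p = 0.0406), CTNNB1_NFE2L2 (-1.64 ± 0.42, adjusted p = 0.00484) and NFE2L2_MET (-1.57 ± 0.43, adjusted p = 0.0154). The CTNNB1_MET call was lost with each of 9 libraries left out in turn (adjusted p up to 0.165, without WT replicate 2) and under 2 other settings (up to 0.136, in a fit of only the libraries compared), and the NFE2L2_MET call without WT replicate 2, NFE2L2_MET replicate 3, NFE2L2_MET replicate 2 or WT replicate 1 (adjusted p up to 0.0681) and in a fit of only the libraries compared (0.0864). The 6 stellate cell and fibroblast markers summed to 219 to 311 CPM, 187 to 242 CPM, 112 to 245 CPM and 252 to 287 CPM in the same 4 models, against 248 to 779 CPM in WT, and their part in the Cyp1b1 values was not tested.

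Cyp2a5 and Cyp2a4 rose against WT in each of the 4 models. Cyp2a5 is the coumarin hydroxylase of mouse liver (chromosome 7, 26835305 to 26843548) and Cyp2a4 a testosterone hydroxylase known as female-biased (chromosome 7, 26307169 to 26315088). The pair share much of their sequence, as their promoters show. Below are the bases from 150 to 41 before each RefSeq start, chr7:26307042-26307151 and chr7:26835189-26835298 on the plus strand, with capitals where a base differs from the partner or faces a gap in the alignment.
Cyp2a4: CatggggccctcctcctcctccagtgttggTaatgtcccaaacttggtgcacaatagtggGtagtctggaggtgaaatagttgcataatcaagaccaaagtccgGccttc
Cyp2a5: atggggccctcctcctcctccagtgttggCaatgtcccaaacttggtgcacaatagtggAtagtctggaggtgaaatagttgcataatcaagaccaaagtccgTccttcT
Over this stretch 95.5% of aligned positions were identical, and over the 250 bases before the starts 97.6%.

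Cyp2a5 stood at 9856, 12884 and 13480.0 CPM in CTNNB1_NFE2L2_MET, 1392, 1675 and 1214 in CTNNB1_MET, 21887, 25177 and 25202 in CTNNB1_NFE2L2, 9073, 6825 and 11508 in NFE2L2_MET, and 737, 225 and 431 CPM in WT. The 3 groups with G31A-NFE2L2 shared no value with CTNNB1_MET, and CTNNB1_MET lay above WT. It rose 26.0-fold in CTNNB1_NFE2L2_MET (4.70 ± 0.37, adjusted p = 1.44e-07), 3.07-fold in CTNNB1_MET (1.62 ± 0.33, adjusted p = 0.00342), 51.9-fold in CTNNB1_NFE2L2 (5.70 ± 0.39, adjusted p = 3.13e-08) and 19.7-fold in NFE2L2_MET (4.30 ± 0.36, adjusted p = 9.85e-07), each against WT. With NFE2L2 added to CTNNB1_MET the rise was 3.08 ± 0.34, adjusted p = 1.28e-05. Against CTNNB1_NFE2L2 the level in CTNNB1_NFE2L2_MET was lower (-0.997 ± 0.32, adjusted p = 0.0336), a call lost with each of 5 libraries left out in turn (adjusted p up to 0.119, without CTNNB1_NFE2L2_MET replicate 1) and under 2 other settings (up to 0.0773, without the 3 added libraries).

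Cyp2a4 had 4605, 6020.0 and 5496 CPM in CTNNB1_NFE2L2_MET, 333, 284 and 253 in CTNNB1_MET, 4707, 6502 and 6184 in CTNNB1_NFE2L2, 6271, 5689 and 8451 in NFE2L2_MET, and 11.6, 11.2 and 54.1 CPM in WT. Again the groups with G31A-NFE2L2 lay above CTNNB1_MET and CTNNB1_MET above WT. The log2 rises against WT were 7.71 ± 0.61, adjusted p = 4.62e-07 in CTNNB1_NFE2L2_MET, 3.50 ± 0.51, adjusted p = 4.47e-04 in CTNNB1_MET, 7.82 ± 0.61, adjusted p = 4.31e-07 in CTNNB1_NFE2L2 and 8.05 ± 0.62, adjusted p = 1.25e-06 in NFE2L2_MET. With NFE2L2 added to CTNNB1_MET the rise was 4.21 ± 0.52, adjusted p = 5.84e-05. The ratio of Cyp2a4 to Cyp2a5 counts within a library was lowest in WT and highest in NFE2L2_MET, and the CTNNB1_MET and CTNNB1_NFE2L2 libraries overlapped. It was 0.408 to 0.467 in CTNNB1_NFE2L2_MET, 0.170 to 0.239 in CTNNB1_MET, 0.215 to 0.258 in CTNNB1_NFE2L2, 0.691 to 0.834 in NFE2L2_MET and 0.0157 to 0.125 in WT. Annotated transcripts of Cyp2a5 and Cyp2a4 shared 31.01% and 36.1% of their 50-base runs with each other, so part of the reads of either gene went uncounted.

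The other Cyp2a members fell in CTNNB1_NFE2L2 against WT. Cyp2a12, a steroid and bile acid hydroxylase, had 126, 209.6 and 238 CPM in CTNNB1_NFE2L2_MET, 438, 585 and 515 in CTNNB1_MET, 128, 59.3 and 179 in CTNNB1_NFE2L2, 780.2, 694 and 774 in NFE2L2_MET, and 852, 692 and 899 CPM in WT. It fell in CTNNB1_NFE2L2_MET (-2.09 ± 0.32, adjusted p = 1.28e-04) and CTNNB1_NFE2L2 (-2.74 ± 0.33, adjusted p = 1.79e-05) against WT, and those libraries lay below all WT libraries. The CTNNB1_MET libraries also lay below all WT libraries, without passing against WT. NFE2L2_MET against WT gave -0.12 ± 0.31, adjusted p = 0.814. The fall was -1.97 ± 0.32, adjusted p = 4.84e-04 with CTNNB1 added and -1.42 ± 0.32, adjusted p = 0.00366 with NFE2L2 added. Its neighbour in sequence, Cyp2a22, had 5.73, 10.2 and 8.42 CPM in CTNNB1_NFE2L2_MET, 21.6, 22.9 and 20.4 in CTNNB1_MET, 3.57, 3.55 and 4.28 in CTNNB1_NFE2L2, 14.3, 11.0 and 12.8 in NFE2L2_MET, and 8.13, 6.94 and 8.40 CPM in WT. CTNNB1_MET rose against WT (1.47 ± 0.18, adjusted p = 4.28e-05) while CTNNB1_NFE2L2 fell (-1.04 ± 0.19, adjusted p = 3.64e-04). NFE2L2_MET was higher than WT (0.70 ± 0.18, adjusted p = 0.0108), a call lost on the single-strand counts (0.123), and CTNNB1_NFE2L2_MET was higher than CTNNB1_NFE2L2 (1.10 ± 0.19, adjusted p = 7.85e-04) and lower than CTNNB1_MET (-1.41 ± 0.17, adjusted p = 2.63e-05).

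**Figure D3:**
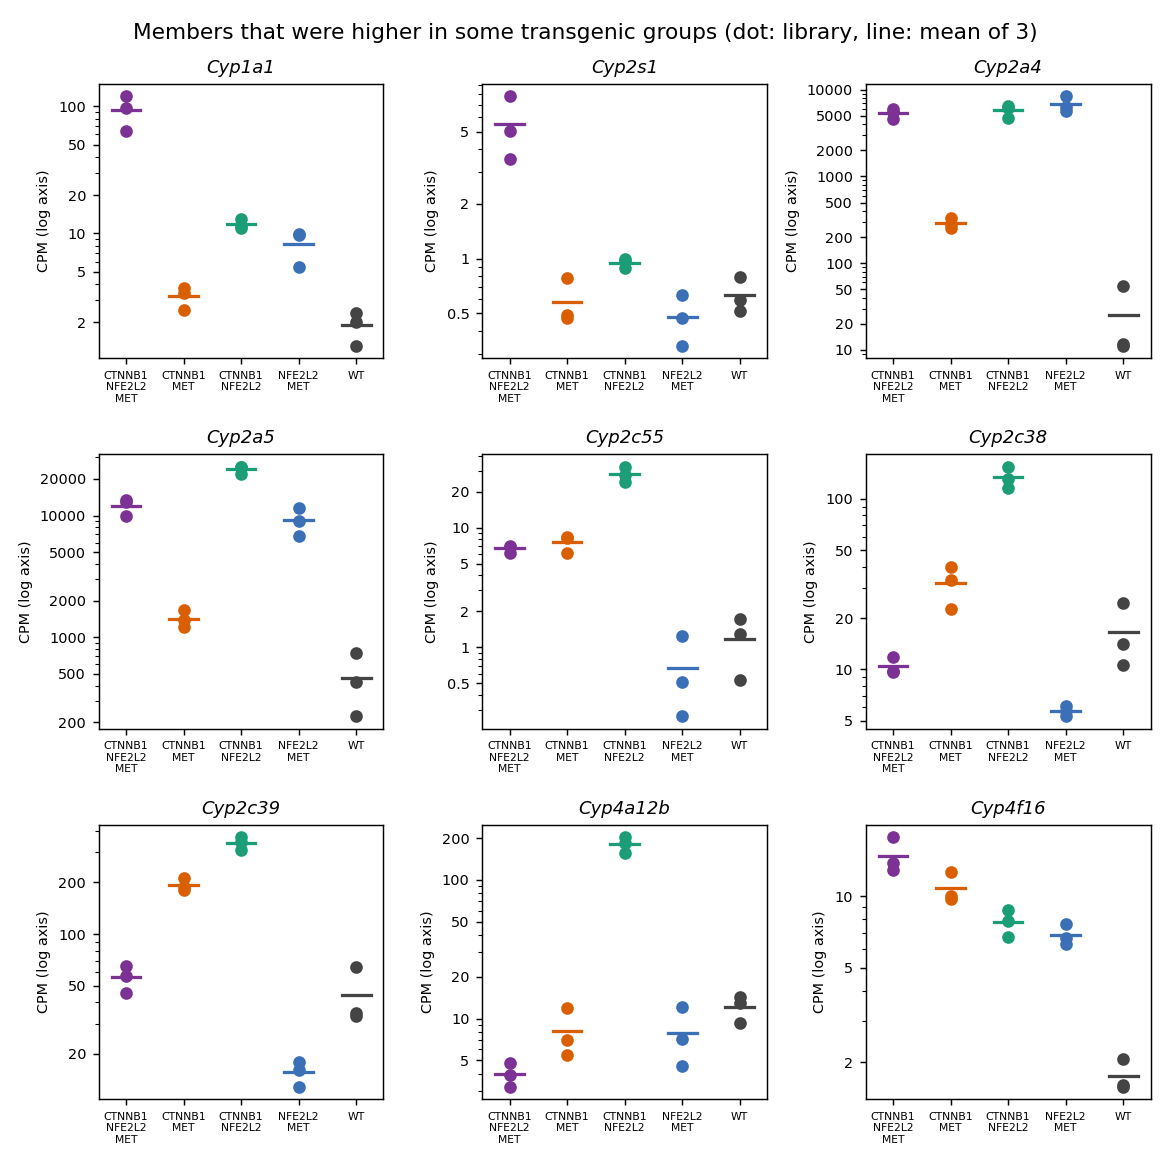
CPM per library (log axes, each panel with its own range) of 9 members that were higher in some transgenic groups. Points are libraries and lines are means of 3. Cyp1a1 and Cyp2s1 are highest in CTNNB1_NFE2L2_MET, Cyp2c38, Cyp2c39, Cyp2c55 and Cyp4a12b in CTNNB1_NFE2L2, and WT is lowest for Cyp4f16.

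The 13 Cyp2c members, fatty acid epoxygenases and drug hydroxylases clustered on chromosome 19, split by gene. In CTNNB1_NFE2L2_MET against WT 8 fell and 1 rose, where 23.4% of all genes were lower and 26.5% higher. In CTNNB1_MET none fell and 5 rose (6.22% and 11.0% of all genes), Cyp2c69 among them, a member through that group alone. In CTNNB1_NFE2L2 6 fell and 3 rose (24.2% and 24.5%), and in NFE2L2_MET 4 fell and 1 rose (9.89% and 13.5%). The share that rose was above that of all genes only in CTNNB1_MET. The remaining members did not pass. With NFE2L2 added to CTNNB1_MET 10 of 13 fell and none rose, where 15.4% of all genes were lower and 18.4% higher. Cyp2c69 was again among those that fell.

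Cyp2c29, a CAR-inducible epoxygenase and the most abundant Cyp2c gene of WT liver per length (chromosome 19, 39269405 to 39330713), had 53.9, 120.1 and 221 CPM in CTNNB1_NFE2L2_MET, 399, 636 and 764 in CTNNB1_MET, 228, 245 and 295 in CTNNB1_NFE2L2, 942, 512 and 689.7 in NFE2L2_MET, and 1292, 1118 and 2000.1 CPM in WT. The libraries of every model lay below all WT libraries, and those of CTNNB1_NFE2L2_MET and CTNNB1_NFE2L2 also lay below those of the other models. The level was 11.1-fold lower in CTNNB1_NFE2L2_MET than in WT (-3.48 ± 0.46, adjusted p = 5.11e-05) and 5.74-fold lower in CTNNB1_NFE2L2 than in WT (-2.52 ± 0.44, adjusted p = 5.06e-04). The difference was -1.29 ± 0.43, adjusted p = 0.0554 in CTNNB1_MET and -1.04 ± 0.42, adjusted p = 0.0970 in NFE2L2_MET against WT. Cyp2c29 was lower in CTNNB1_NFE2L2_MET than in NFE2L2_MET (-2.44 ± 0.44, adjusted p = 0.00130) and than in CTNNB1_MET (-2.19 ± 0.44, adjusted p = 0.00221). Against CTNNB1_NFE2L2 the difference was -0.96 ± 0.43, adjusted p = 0.120.

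Cyp2c44, an arachidonic acid epoxygenase named Cyp2c23 in GENCODE, had 59.3, 112 and 129 CPM in CTNNB1_NFE2L2_MET, 243, 298 and 349 in CTNNB1_MET, 168, 109 and 219 in CTNNB1_NFE2L2, 295, 282 and 317 in NFE2L2_MET, and 559, 527 and 442 CPM in WT. It fell in CTNNB1_NFE2L2_MET (-2.35 ± 0.28, adjusted p = 1.20e-05) and in CTNNB1_NFE2L2 (-1.63 ± 0.27, adjusted p = 2.55e-04) against WT, with CTNNB1_MET at -0.78 ± 0.27, adjusted p = 0.0599 and NFE2L2_MET at -0.77 ± 0.27, adjusted p = 0.0505. Cyp2c50 and Cyp2c54, a pair of CAR-responsive epoxygenases, were low in every model by their means. Cyp2c50 had 12.8, 27.8 and 47.4 CPM in CTNNB1_NFE2L2_MET, 79.1, 101.3 and 119.6 in CTNNB1_MET, 31.7, 32.0 and 68.7 in CTNNB1_NFE2L2, 74.3, 27.0 and 59.9 in NFE2L2_MET, and 236, 97.1 and 248 CPM in WT. Cyp2c54 had 9.78, 18.1 and 34.6 CPM in CTNNB1_NFE2L2_MET, 44.6, 58.7 and 61.4 in CTNNB1_MET, 18.6, 18.1 and 44.6 in CTNNB1_NFE2L2, 56.0, 25.7 and 45.1 in NFE2L2_MET, and 152, 89.9 and 177 CPM in WT. For both, all CTNNB1_NFE2L2_MET, CTNNB1_NFE2L2 and NFE2L2_MET libraries lay below all WT libraries. The CTNNB1_MET libraries did so for Cyp2c54 and overlapped WT for Cyp2c50. Cyp2c50 fell in CTNNB1_NFE2L2_MET (-2.72 ± 0.56, adjusted p = 0.00172) and CTNNB1_NFE2L2 (-2.14 ± 0.55, adjusted p = 0.00707) against WT, and so did Cyp2c54 (-2.75 ± 0.51, adjusted p = 8.39e-04 in CTNNB1_NFE2L2_MET and -2.37 ± 0.50, adjusted p = 0.00215 in CTNNB1_NFE2L2). Their falls in NFE2L2_MET (-1.85 ± 0.54, adjusted p = 0.0294 for Cyp2c50 and -1.72 ± 0.49, adjusted p = 0.0254 for Cyp2c54) were less stable. The Cyp2c50 call there was lost without NFE2L2_MET replicate 2, WT replicate 3, WT replicate 1 or NFE2L2_MET replicate 3 (adjusted p up to 0.0952) and under 4 other settings (up to 0.0794, without the 3 added libraries), and the Cyp2c54 call without NFE2L2_MET replicate 2, WT replicate 3, NFE2L2_MET replicate 3 or WT replicate 1 (adjusted p up to 0.0877) and without the 3 added libraries (0.0580).

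Cyp2c38, Cyp2c39 and Cyp2c55 each rose in CTNNB1_NFE2L2 livers against WT. Cyp2c39, which oxidises retinoic acid (chromosome 19, 39510862 to 39568529), had 65.3, 44.998 and 57.3 CPM in CTNNB1_NFE2L2_MET, 189, 212 and 181 in CTNNB1_MET, 345, 367 and 309.8 in CTNNB1_NFE2L2, 17.9, 16.1 and 12.9 in NFE2L2_MET, and 64.5, 34.6 and 33.3 CPM in WT. Cyp2c38, its neighbour and an arachidonic acid epoxygenase (chromosome 19, 39389556 to 39463075), had 9.63, 9.76 and 11.9 CPM in CTNNB1_NFE2L2_MET, 22.6, 39.9 and 33.3 in CTNNB1_MET, 131, 155 and 115.9 in CTNNB1_NFE2L2, 6.07, 5.72 and 5.33 in NFE2L2_MET, and 24.7, 10.6 and 14.2 CPM in WT. For both genes every CTNNB1_NFE2L2 library exceeded all libraries of the other groups, and every NFE2L2_MET library fell below all others. Cyp2c39 rose against WT in CTNNB1_NFE2L2 (2.95 ± 0.23, adjusted p = 1.93e-07) and CTNNB1_MET (2.14 ± 0.22, adjusted p = 1.78e-05) and fell in NFE2L2_MET (-1.497 ± 0.23, adjusted p = 3.79e-04). CTNNB1_NFE2L2_MET did not pass against WT (0.34 ± 0.22, adjusted p = 0.210). Cyp2c38 gave 3.03 ± 0.27, adjusted p = 1.00e-06 in CTNNB1_NFE2L2 and -1.52 ± 0.28, adjusted p = 0.00203 in NFE2L2_MET, and its rise in CTNNB1_MET (0.96 ± 0.26, adjusted p = 0.0220) was lost without CTNNB1_MET replicate 2, WT replicate 3, WT replicate 2 or CTNNB1_MET replicate 3 (adjusted p up to 0.0909) and under 2 other settings (up to 0.147, without the 3 added libraries). The difference of CTNNB1_NFE2L2_MET from WT was -0.65 ± 0.27, adjusted p = 0.0565.

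With CTNNB1 added to NFE2L2_MET, Cyp2c39 rose by 1.84 ± 0.23, adjusted p = 4.40e-05 and Cyp2c38 by 0.87 ± 0.29, adjusted p = 0.0340, the second call being lost with each of 6 libraries left out in turn (adjusted p up to 0.0982, without CTNNB1_NFE2L2_MET replicate 3) and under 4 other settings (up to 0.133, without the 3 added libraries). With MET added to CTNNB1_NFE2L2 both fell (Cyp2c39 -2.61 ± 0.23, adjusted p = 6.11e-06, and Cyp2c38 -3.68 ± 0.28, adjusted p = 3.03e-06). Of the 50-base runs of Cyp2c39, 11.0% also occur in Cyp2c38. Cyp2c55, a CAR- and PXR-inducible hydroxylase of arachidonic acid, measured 7.12, 6.20 and 6.86 CPM in CTNNB1_NFE2L2_MET, 6.13, 8.29 and 8.46 in CTNNB1_MET, 24.0, 32.6 and 27.9 in CTNNB1_NFE2L2, 1.24, 0.266 and 0.516 in NFE2L2_MET, and 1.73, 0.534 and 1.28 CPM in WT. The 3 groups with S45Y-CTNNB1 lay above all NFE2L2_MET and WT libraries. Its rise against WT was 2.53 ± 0.34, adjusted p = 2.81e-05 in CTNNB1_NFE2L2_MET, 2.71 ± 0.34, adjusted p = 8.65e-05 in CTNNB1_MET and 4.60 ± 0.34, adjusted p = 7.38e-08 in CTNNB1_NFE2L2, while NFE2L2_MET gave -0.75 ± 0.46, adjusted p = 0.256. Its level in CTNNB1_NFE2L2_MET was higher than in NFE2L2_MET (3.28 ± 0.37, adjusted p = 1.40e-05) and lower than in CTNNB1_NFE2L2 (-2.06 ± 0.27, adjusted p = 1.40e-04).

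Cyp2c37 and Cyp2c67 moved less. Cyp2c37 had 3.07, 6.30 and 9.44 CPM in CTNNB1_NFE2L2_MET, 17.0, 18.0 and 19.8 in CTNNB1_MET, 17.1, 31.4 and 20.7 in CTNNB1_NFE2L2, 9.43, 4.19 and 11.7 in NFE2L2_MET, and 14.2, 8.72 and 20.97 CPM in WT. It was lower in CTNNB1_NFE2L2_MET than in CTNNB1_NFE2L2 (-1.87 ± 0.43, adjusted p = 0.00806) and than in CTNNB1_MET (-1.54 ± 0.44, adjusted p = 0.0163), the second call being lost without CTNNB1_NFE2L2_MET replicate 1 or CTNNB1_NFE2L2_MET replicate 2 (adjusted p up to 0.0627). Its fall against WT (-1.22 ± 0.44, adjusted p = 0.0355) was lost without WT replicate 3, CTNNB1_NFE2L2_MET replicate 1, CTNNB1_NFE2L2_MET replicate 2 or WT replicate 1 (adjusted p up to 0.154) and under 4 other settings (up to 0.0864, under total-count scaling). Cyp2c67, the member of the subfamily with the highest mean CPM over all libraries, had 253, 522 and 529 CPM in CTNNB1_NFE2L2_MET, 505, 567 and 495 in CTNNB1_MET, 1173, 798 and 1238 in CTNNB1_NFE2L2, 759, 571 and 652 in NFE2L2_MET, and 609, 828 and 686 CPM in WT. CTNNB1_NFE2L2_MET fell below CTNNB1_NFE2L2 (-1.30 ± 0.24, adjusted p = 0.00160), and the fall against WT (-0.70 ± 0.24, adjusted p = 0.0247) was lost without WT replicate 2 or CTNNB1_NFE2L2_MET replicate 1 (adjusted p up to 0.0967) and under 2 other settings (up to 0.129, under total-count scaling). Cyp2c70, which makes the muricholic acids of mouse bile, averaged 494 ± 99.6 CPM in CTNNB1_NFE2L2_MET, 717 ± 78.5 CPM in CTNNB1_MET, 437 ± 87.3 CPM in CTNNB1_NFE2L2, 908 ± 176 CPM in NFE2L2_MET and 745 ± 129.9 CPM in WT (SD, n = 3 each). It fell in CTNNB1_NFE2L2 against WT (-0.77 ± 0.20, adjusted p = 0.00470), and its call in CTNNB1_NFE2L2_MET against WT (-0.59 ± 0.20, adjusted p = 0.0204) was lost without WT replicate 3 or CTNNB1_NFE2L2_MET replicate 1 (adjusted p up to 0.0950) and under 2 other settings (up to 0.114, under total-count scaling). Cyp2c68 gave log2 fold changes between -0.73 and 0.26 over the 7 comparisons.

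The 9 Cyp2d members, clustered on chromosome 15, moved more evenly. In CTNNB1_NFE2L2_MET against WT 8 fell and none rose, where 23.4% of all genes were lower and 26.5% higher. Cyp2d12 did not pass there (-0.87 ± 0.42, adjusted p = 0.0947). In CTNNB1_NFE2L2 against WT 6 fell and 1 rose (24.2% and 24.5% of all genes), the 1 being Cyp2d12, a member through that group alone. In CTNNB1_MET and in NFE2L2_MET 1 fell and none rose, where 6.22% and 9.89% of all genes were lower and 11.0% and 13.5% higher. The shares that fell in these groups were near those of all genes. With CTNNB1 added 8 fell, with NFE2L2 added 7 and with MET added 4 (Cyp2d12 among them), and none rose in those comparisons. Of all genes 14.3%, 15.4% and 11.8% were lower and 16.4%, 18.4% and 13.1% higher there.

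Cyp2d9, the male-biased testosterone hydroxylase (chromosome 15, 82433437 to 82456845), had 462, 746 and 820.3 CPM in CTNNB1_NFE2L2_MET, 1085, 1238 and 1280.5 in CTNNB1_MET, 1078, 1142 and 1464 in CTNNB1_NFE2L2, 1352, 1372 and 1203 in NFE2L2_MET, and 1827, 1215 and 2001 CPM in WT. All CTNNB1_NFE2L2_MET libraries lay below all others. The fall against WT was -1.31 ± 0.22, adjusted p = 1.32e-04, and the other models gave -0.48 ± 0.21, adjusted p = 0.132 in CTNNB1_MET, -0.45 ± 0.21, adjusted p = 0.0914 in CTNNB1_NFE2L2 and -0.36 ± 0.21, adjusted p = 0.238 in NFE2L2_MET. Cyp2d26, an abundant liver member of the subfamily, had 118.3, 175 and 177 CPM in CTNNB1_NFE2L2_MET, 459, 578 and 622 in CTNNB1_MET, 469, 555 and 539 in CTNNB1_NFE2L2, 611, 819 and 734 in NFE2L2_MET, and 872, 801 and 754 CPM in WT. Here too every CTNNB1_NFE2L2_MET library was below every other library. It fell 5.16-fold against WT (-2.37 ± 0.17, adjusted p = 5.77e-08), and its log2 change was -2.20 ± 0.17, adjusted p = 3.88e-07 with CTNNB1 added, -1.82 ± 0.17, adjusted p = 2.26e-06 with NFE2L2 added and -1.73 ± 0.17, adjusted p = 1.06e-05 with MET added. Cyp2d26 was also called lower in CTNNB1_NFE2L2 than in WT, and those libraries lay below all WT libraries. In CTNNB1_MET against WT the smaller fall (-0.55 ± 0.17, adjusted p = 0.0337) was lost without CTNNB1_MET replicate 1, WT replicate 1, CTNNB1_MET replicate 2 or WT replicate 2 (adjusted p up to 0.155) and in a fit of only the libraries compared (0.0515).

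Cyp2d40 and Cyp2d13 were low where S45Y-CTNNB1 and G31A-NFE2L2 met. Cyp2d40 had 4.51, 11.8 and 10.5 CPM in CTNNB1_NFE2L2_MET, 46.0, 41.9 and 39.6 in CTNNB1_MET, 9.85, 7.002 and 10.2 in CTNNB1_NFE2L2, 29.3, 46.6 and 29.6 in NFE2L2_MET, and 35.4, 66.2 and 34.3 CPM in WT. The CTNNB1_NFE2L2_MET and CTNNB1_NFE2L2 libraries lay below all of the rest. Its change against WT was -2.34 ± 0.35, adjusted p = 1.14e-04 in CTNNB1_NFE2L2_MET and -2.33 ± 0.35, adjusted p = 1.38e-04 in CTNNB1_NFE2L2, with -0.10 ± 0.32, adjusted p = 0.873 in CTNNB1_MET and -0.37 ± 0.32, adjusted p = 0.442 in NFE2L2_MET. In CTNNB1_NFE2L2_MET it fell against NFE2L2_MET (-1.98 ± 0.34, adjusted p = 9.63e-04) and against CTNNB1_MET (-2.25 ± 0.34, adjusted p = 3.43e-04), with -0.01 ± 0.35, adjusted p = 0.981 against CTNNB1_NFE2L2. Cyp2d13, listed in RefSeq as a transcribed pseudogene, had 49.1, 102.9 and 138 CPM in CTNNB1_NFE2L2_MET, 313, 316 and 291 in CTNNB1_MET, 78.7, 44.2 and 94.3 in CTNNB1_NFE2L2, 265, 268 and 242 in NFE2L2_MET, and 600.3, 467 and 443 CPM in WT. It fell in CTNNB1_NFE2L2_MET (-2.38 ± 0.33, adjusted p = 5.11e-05) and CTNNB1_NFE2L2 (-2.80 ± 0.33, adjusted p = 1.70e-05) against WT, and the call in NFE2L2_MET (-0.96 ± 0.31, adjusted p = 0.0401) was lost with each of 10 libraries left out in turn (adjusted p up to 0.125, without WT replicate 1) and under 2 other settings (up to 0.0720, with no low-count filter). Cyp2d12, a member through CTNNB1_NFE2L2 alone and so bound to be high there, was higher in that group than in WT (1.26 ± 0.38, adjusted p = 0.0124). The call was lost without CTNNB1_NFE2L2 replicate 1 (adjusted p = 0.0584) and under 2 other settings (up to 0.203, on the single-strand counts). Cyp2d10, the most abundant of the subfamily in WT liver per length, had 484, 615 and 619.8 CPM in CTNNB1_NFE2L2_MET, 828, 883 and 949.6 in CTNNB1_MET, 751, 689 and 862 in CTNNB1_NFE2L2, 956, 1038 and 1019.9 in NFE2L2_MET, and 1099, 864 and 1255 CPM in WT. It fell in CTNNB1_NFE2L2_MET against WT (-0.90 ± 0.15, adjusted p = 1.44e-04), and its call in CTNNB1_NFE2L2 (-0.48 ± 0.15, adjusted p = 0.0144) was lost without WT replicate 3 or CTNNB1_NFE2L2 replicate 2 (adjusted p up to 0.0751) and under 3 other settings (up to 0.0911, under total-count scaling). Cyp2d37-ps, named as a pseudogene, fell in CTNNB1_NFE2L2_MET (-1.21 ± 0.22, adjusted p = 4.49e-04) and CTNNB1_NFE2L2 (-1.17 ± 0.22, adjusted p = 6.45e-04) against WT, and the Cyp2d11 call in CTNNB1_NFE2L2_MET (-0.97 ± 0.28, adjusted p = 0.00874) was lost without the 3 added libraries (0.0601). Cyp2d22, the mouse gene closest to human CYP2D6, averaged 231 ± 20.4 CPM in CTNNB1_NFE2L2_MET and 522 ± 81.6 CPM in WT (SD, n = 3 each; -1.17 ± 0.13, adjusted p = 3.76e-06).

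Single-member subfamilies and Cyp2j held some of the steepest falls. Cyp2j5, an arachidonic acid epoxygenase of liver and kidney (chromosome 4, 96628773 to 96664154), had 96.1, 148 and 222 CPM in CTNNB1_NFE2L2_MET, 297, 349 and 394 in CTNNB1_MET, 237, 206 and 293 in CTNNB1_NFE2L2, 632, 551 and 605 in NFE2L2_MET, and 686, 713 and 811 CPM in WT. All CTNNB1_NFE2L2_MET, CTNNB1_MET and CTNNB1_NFE2L2 libraries lay below all NFE2L2_MET and WT libraries. It fell against WT in CTNNB1_NFE2L2_MET (-2.25 ± 0.24, adjusted p = 2.40e-06), CTNNB1_MET (-1.09 ± 0.23, adjusted p = 0.00458) and CTNNB1_NFE2L2 (-1.59 ± 0.23, adjusted p = 5.78e-05), and NFE2L2_MET gave -0.31 ± 0.23, adjusted p = 0.356. It also fell with CTNNB1 added (-1.94 ± 0.23, adjusted p = 2.58e-05) and with NFE2L2 added (-1.16 ± 0.23, adjusted p = 0.00135). Cyp2j9, a relative known from brain and other tissues, had 2.15, 3.08 and 3.94 CPM in CTNNB1_NFE2L2_MET, 3.68, 6.24 and 5.69 in CTNNB1_MET, 3.53, 3.76 and 4.84 in CTNNB1_NFE2L2, 6.60, 6.25 and 4.53 in NFE2L2_MET, and 10.9, 14.5 and 10.1 CPM in WT. It fell against WT in CTNNB1_NFE2L2_MET (-1.95 ± 0.25, adjusted p = 1.41e-05), CTNNB1_MET (-1.19 ± 0.24, adjusted p = 0.00368), CTNNB1_NFE2L2 (-1.55 ± 0.25, adjusted p = 1.09e-04) and NFE2L2_MET (-1.03 ± 0.24, adjusted p = 0.00672). Cyp2j6 had 57.7, 63.6 and 79.4 CPM in CTNNB1_NFE2L2_MET, 65.2, 61.5 and 56.8 in CTNNB1_MET, 77.8, 72.6 and 79.8 in CTNNB1_NFE2L2, 100.6, 81.5 and 115 in NFE2L2_MET, and 49.0, 52.3 and 49.8 CPM in WT. The rise was 0.97 ± 0.13, adjusted p = 7.21e-05 in NFE2L2_MET and 0.61 ± 0.13, adjusted p = 0.00114 in CTNNB1_NFE2L2, and the smaller one in CTNNB1_NFE2L2_MET (0.41 ± 0.13, adjusted p = 0.0149) was lost without CTNNB1_NFE2L2_MET replicate 3 (adjusted p = 0.0921) and without the 3 added libraries (0.149).

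Cyp2u1, a hydroxylase of long-chain fatty acids listed as male-biased (chromosome 3, 131288441 to 131303227), had 1.02, 6.54 and 5.89 CPM in CTNNB1_NFE2L2_MET, 10.8, 13.4 and 16.2 in CTNNB1_MET, 8.55, 4.18 and 6.89 in CTNNB1_NFE2L2, 25.1, 24.0 and 22.6 in NFE2L2_MET, and 58.0, 42.7 and 35.1 CPM in WT. The libraries of every model lay below all WT libraries, and those of the 3 groups with S45Y-CTNNB1 also lay below all NFE2L2_MET libraries. The level in CTNNB1_NFE2L2_MET was 10.02-fold lower than in WT (-3.32 ± 0.45, adjusted p = 6.95e-05). It fell against WT in CTNNB1_NFE2L2 (-2.79 ± 0.44, adjusted p = 2.40e-04) and in CTNNB1_MET (-1.75 ± 0.42, adjusted p = 0.0132), the second call being lost without CTNNB1_MET replicate 1 (adjusted p = 0.0639). NFE2L2_MET gave -0.92 ± 0.40, adjusted p = 0.120. With CTNNB1 added it fell (-2.40 ± 0.45, adjusted p = 0.00161), and the fall with NFE2L2 added (-1.58 ± 0.45, adjusted p = 0.0170) was lost without CTNNB1_MET replicate 3 (adjusted p = 0.0608) and under 3 other settings (up to 0.0675, in a fit of only the libraries compared). Part of the Cyp2u1 transcript (11.5% of its 50-base runs) also occurs in the gene 4930534D22Rik.

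Cyp2r1, a vitamin D hydroxylase, moved little, with 6.91, 10.05 and 10.3 CPM in CTNNB1_NFE2L2_MET, 6.19, 7.65 and 6.84 in CTNNB1_MET, 13.4, 12.7 and 16.4 in CTNNB1_NFE2L2, 10.4, 8.12 and 12.9 in NFE2L2_MET, and 12.9, 12.6 and 13.98 CPM in WT. It was lower in CTNNB1_MET than in WT (-0.93 ± 0.19, adjusted p = 0.00302). The call against WT in CTNNB1_NFE2L2_MET (-0.53 ± 0.18, adjusted p = 0.0229) was lost without CTNNB1_NFE2L2_MET replicate 1 or WT replicate 3 (adjusted p up to 0.109) and under 3 other settings (up to 0.196, under total-count scaling), and that against CTNNB1_NFE2L2 (-0.64 ± 0.18, adjusted p = 0.0166) was lost without CTNNB1_NFE2L2 replicate 3 or CTNNB1_NFE2L2_MET replicate 1 (adjusted p up to 0.0794) and on the single-strand counts (0.0514). Cyp2g1, best known from the olfactory mucosa, had 1.54, 2.79 and 4.09 CPM in CTNNB1_NFE2L2_MET, 3.49, 4.04 and 5.59 in CTNNB1_MET, 5.51, 7.05 and 7.11 in CTNNB1_NFE2L2, 2.77, 1.73 and 2.98 in NFE2L2_MET, and 5.82, 4.75 and 1.92 CPM in WT. Its groups overlapped in 6 of the 7 comparisons. Its 1 call, a fall with MET added (-1.22 ± 0.37, adjusted p = 0.0256), was lost without CTNNB1_NFE2L2_MET replicate 1, CTNNB1_NFE2L2 replicate 2, CTNNB1_NFE2L2 replicate 3 or CTNNB1_NFE2L2_MET replicate 2 (adjusted p up to 0.0968).

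Cyp3a11, the main drug-oxidising P450 of mouse liver and a PXR target (chromosome 5, 145854426 to 145879964), was the most abundant member of WT liver per length. It had 424, 439 and 694 CPM in CTNNB1_NFE2L2_MET, 1323, 2127 and 1854 in CTNNB1_MET, 671, 819.5 and 1047 in CTNNB1_NFE2L2, 2069, 774 and 922 in NFE2L2_MET, and 3719.7, 1745 and 6760.4 CPM in WT. WT libraries spread widely, and the CTNNB1_NFE2L2_MET and CTNNB1_NFE2L2 libraries lay below all of them. The level was 7.85-fold lower in CTNNB1_NFE2L2_MET than in WT (-2.97 ± 0.49, adjusted p = 2.63e-04), and it also fell in CTNNB1_NFE2L2 (-2.27 ± 0.48, adjusted p = 0.00167). CTNNB1_MET did not pass (-1.20 ± 0.46, adjusted p = 0.0929). The fall in NFE2L2_MET (-1.70 ± 0.47, adjusted p = 0.0199) was lost without WT replicate 3, NFE2L2_MET replicate 3 or NFE2L2_MET replicate 2 (adjusted p up to 0.0819) and under 2 other settings (up to 0.105, in a fit of only the libraries compared), and the fall with NFE2L2 added (-1.77 ± 0.47, adjusted p = 0.0111) was lost without CTNNB1_NFE2L2_MET replicate 1 (adjusted p = 0.0539).

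Cyp3a25 had 185, 267 and 335 CPM in CTNNB1_NFE2L2_MET, 299, 486 and 330.2 in CTNNB1_MET, 319.5, 439 and 469 in CTNNB1_NFE2L2, 449.7, 299.7 and 307 in NFE2L2_MET, and 889.7, 598 and 859 CPM in WT. Each model fell against WT, with -1.58 ± 0.26, adjusted p = 1.66e-04 in CTNNB1_NFE2L2_MET, -0.93 ± 0.25, adjusted p = 0.00750 in CTNNB1_NFE2L2, -1.15 ± 0.26, adjusted p = 0.00543 in NFE2L2_MET and -1.07 ± 0.26, adjusted p = 0.0106 in CTNNB1_MET. The CTNNB1_MET call was lost without CTNNB1_MET replicate 1 (adjusted p = 0.0590) and without the 3 added libraries (0.0742). Cyp3a13, a less inducible relative found also in the gut, had 27.1, 27.3 and 34.3 CPM in CTNNB1_NFE2L2_MET, 39.0, 49.96 and 35.9 in CTNNB1_MET, 40.5, 41.8 and 44.0 in CTNNB1_NFE2L2, 54.2, 97.8 and 68.5 in NFE2L2_MET, and 35.1, 54.5 and 39.2 CPM in WT. It was highest in NFE2L2_MET, and fell with CTNNB1 added (-1.31 ± 0.21, adjusted p = 3.29e-04). Its rise in NFE2L2_MET against WT (0.77 ± 0.21, adjusted p = 0.0151) was lost without NFE2L2_MET replicate 2, WT replicate 1 or WT replicate 3 (adjusted p up to 0.0663) and under 2 other settings (up to 0.0789, in a fit of only the libraries compared), and its fall in CTNNB1_NFE2L2_MET against WT (-0.54 ± 0.21, adjusted p = 0.0433) was lost with each of 9 libraries left out in turn (adjusted p up to 0.224, without WT replicate 2) and under 3 other settings (up to 0.195, under total-count scaling). Cyp3a59, which shares 24.7% of its 50-base runs with Cyp3a25, averaged 39.1 ± 10.7, 43.8 ± 13.2, 36.4 ± 9.86 and 33.1 ± 17.3 CPM in CTNNB1_NFE2L2_MET, CTNNB1_MET, CTNNB1_NFE2L2 and NFE2L2_MET and 69.8 ± 12.4 CPM in WT (SD, n = 3 each). Its calls in CTNNB1_NFE2L2 (-0.94 ± 0.35, adjusted p = 0.0426) and NFE2L2_MET (-1.08 ± 0.35, adjusted p = 0.0454) against WT were lost, the first with each of 7 libraries left out in turn (adjusted p up to 0.145, without CTNNB1_NFE2L2 replicate 1) and under 4 other settings (up to 0.131, without the 3 added libraries) and the second with each of 10 libraries left out in turn (adjusted p up to 0.148, without NFE2L2_MET replicate 3) and under 4 other settings (up to 0.136, without the 3 added libraries).

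**Figure D4:**
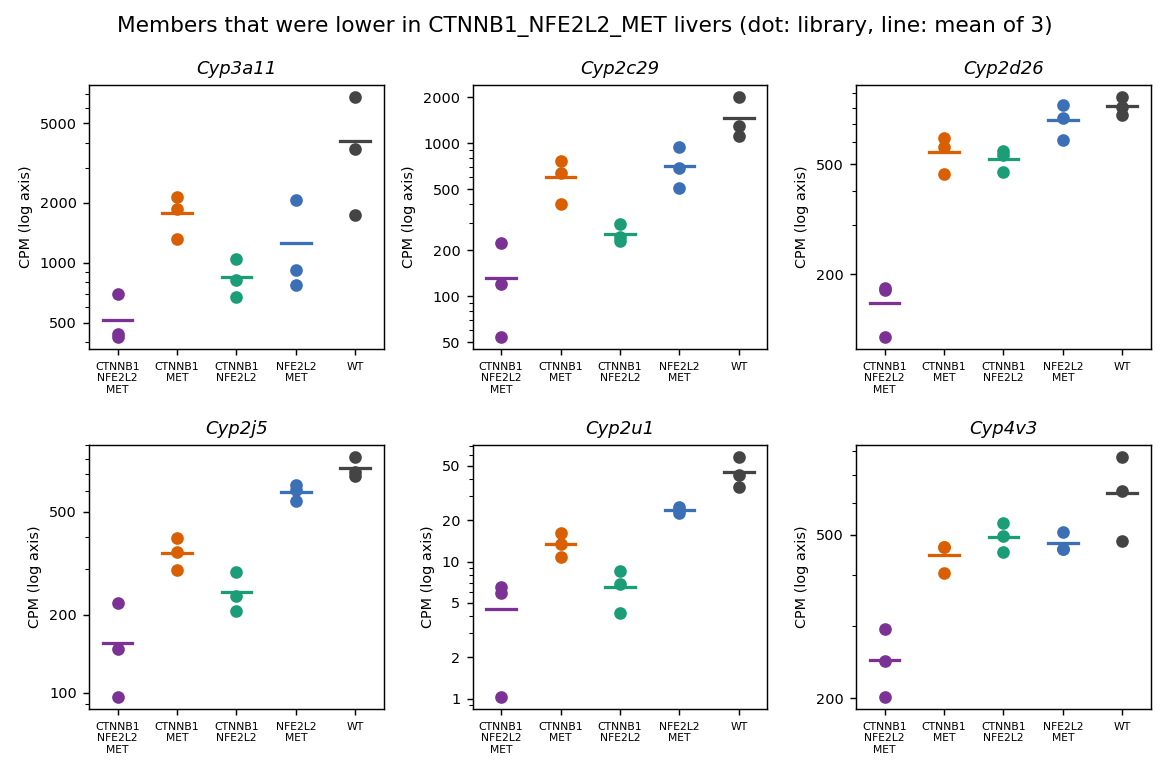
CPM per library (log axes, each panel with its own range) of 6 members that were lower in CTNNB1_NFE2L2_MET livers. Points are libraries and lines are means of 3. In every panel the CTNNB1_NFE2L2_MET mean is the lowest and the WT mean the highest.

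Cyp3a16 and Cyp3a44, known in mice from fetal and female liver, were high in CTNNB1_MET livers, through which alone they reached the 1 CPM limit. Cyp3a16 had 0.410, 0.577 and 1.41 CPM in CTNNB1_NFE2L2_MET, 115, 87.4 and 42.9 in CTNNB1_MET, 0.386, 0.0523 and 0.5002 in CTNNB1_NFE2L2, 0.295, 0.0665 and 0.229 in NFE2L2_MET, and 0.0719, 0 and 0.257 CPM in WT. Each CTNNB1_MET library exceeded every other library, and the WT libraries held 1, 0 and 4 counts. Cyp3a44 had 0.205, 0.385 and 0.389 CPM in CTNNB1_NFE2L2_MET, 6.31, 5.31 and 2.87 in CTNNB1_MET, 0.0483, 0 and 0 in CTNNB1_NFE2L2, 0.0589, 0 and 0.115 in NFE2L2_MET, and 0.0719, 0.178 and 0.0641 CPM in WT. Its CTNNB1_MET libraries again stood above the other 12, and WT held 1, 3 and 1 counts. The fitted log2 rise in CTNNB1_MET against WT was 9.47 ± 0.66, adjusted p = 1.16e-06 for Cyp3a16 and 5.40 ± 0.56, adjusted p = 9.63e-06 for Cyp3a44, values that rest on those few WT counts. With NFE2L2 added to CTNNB1_MET both fell (Cyp3a16 -6.66 ± 0.50, adjusted p = 1.26e-06, and Cyp3a44 -3.85 ± 0.46, adjusted p = 2.20e-05). The call of Cyp3a16 in CTNNB1_NFE2L2_MET against WT (2.82 ± 1.09, adjusted p = 0.0463) was lost with each of 9 libraries left out in turn (adjusted p up to 0.172, without CTNNB1_NFE2L2_MET replicate 3) and with no low-count filter (0.0817). Cyp3a44 did not pass there. Cyp3a44, unlike Cyp3a16, was called higher in CTNNB1_NFE2L2_MET than in NFE2L2_MET and than in CTNNB1_NFE2L2. The first call was lost without NFE2L2_MET replicate 2 or 1, or CTNNB1_NFE2L2_MET replicate 2 or 3 (adjusted p up to 0.102). It was also lost without the 3 added libraries (0.0603), and the second call on the single-strand counts (0.0987).

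The promoters of the pair are shown because both genes were high in CTNNB1_MET, where the 1 CPM limit required them to be. The genes lie on chromosome 5, 145436309 to 145469723 for Cyp3a16 and 145773983 to 145805874 for Cyp3a44. These are the bases from 150 to 41 before each RefSeq start, chr5:145469764-145469873 and chr5:145805915-145806024 on the minus strand, written 5′ to 3′ along the gene, with capitals where a base differs from the partner or faces a gap.
Cyp3a16: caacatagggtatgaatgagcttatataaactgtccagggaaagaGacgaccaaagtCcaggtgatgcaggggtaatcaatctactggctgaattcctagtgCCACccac
Cyp3a44: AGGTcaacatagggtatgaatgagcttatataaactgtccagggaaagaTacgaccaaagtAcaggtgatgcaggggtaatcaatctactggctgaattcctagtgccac
They were 91.2% identical here and 92.9% over the 250 bases before the starts, against 76.6% between Cyp3a16 and Cyp3a11. In their transcripts 10.7% of the 50-base runs of Cyp3a16 and 26.5% of those of Cyp3a44 occur in other genes.

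Cyp2c69 was also a member through CTNNB1_MET alone (chromosome 19, 39842814 to 39886799). It had 0.461, 0.192 and 0.535 CPM in CTNNB1_NFE2L2_MET, 39.9, 31.9 and 9.66 in CTNNB1_MET, 0.386, 0.314 and 0.222 in CTNNB1_NFE2L2, 0.295, 0.200 and 0.0573 in NFE2L2_MET, and 0.216, 0.178 and 0.0641 CPM in WT. CTNNB1_MET libraries lay above all others, and WT held 3, 3 and 1 counts. The fitted rise against WT was 7.42 ± 0.63, adjusted p = 3.10e-06 in CTNNB1_MET, and with NFE2L2 added it fell (-6.08 ± 0.53, adjusted p = 2.60e-06). Cyp2c40, its closest copy by transcript, was also higher in CTNNB1_MET than in WT, as given below. Cyp2c68, closer to Cyp2c69 by promoter than Cyp2c40 is (77.5% over 250 bases), did not pass in CTNNB1_MET against WT (-0.13 ± 0.15, adjusted p = 0.602). Promoters of other members were not aligned with that of Cyp2c69. The stretches from 150 to 41 bases before the starts are set side by side, chr19:39886810-39886919 and chr19:39741142-39741251 on the minus strand, with capitals as before.
Cyp2c69: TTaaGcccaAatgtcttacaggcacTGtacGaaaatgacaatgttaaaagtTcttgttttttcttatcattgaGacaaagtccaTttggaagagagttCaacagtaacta
Cyp2c68: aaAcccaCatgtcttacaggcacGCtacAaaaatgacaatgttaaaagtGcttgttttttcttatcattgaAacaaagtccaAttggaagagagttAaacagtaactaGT
They were 88.4% identical, and 91.3% over 250 bases. Cyp2c69 shares 54.8% of its 50-base runs with other genes, so its counts come from the rest.

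The genes of families 2 and 3 known as female-biased were listed together, and 4 of the 7 tested passed a filter through CTNNB1_MET alone. Of these, Cyp2c69, Cyp3a16 and Cyp3a44 are described above, and Cyp3a41a, which is not a member, had 71, 35 and 13 counts in CTNNB1_MET and none in WT. The other 3, Cyp2a4, Cyp2c39 and Cyp2c40, passed on their levels in several groups. Each was higher in CTNNB1_MET than in WT, where 11.0% of all genes were higher. Their rises were not particular to CTNNB1_MET. Cyp2a4 rose more in each of the other models, Cyp2c39 rose more in CTNNB1_NFE2L2, and Cyp2c40 was also called higher in NFE2L2_MET. Cyp2a4 and Cyp2c39 are described above. Cyp2c40 had 3.23, 2.40 and 3.11 CPM in CTNNB1_NFE2L2_MET, 14.3, 10.8 and 6.42 in CTNNB1_MET, 3.19, 1.93 and 1.56 in CTNNB1_NFE2L2, 5.78, 4.92 and 8.53 in NFE2L2_MET, and 3.60, 3.44 and 2.50 CPM in WT. Its rise in CTNNB1_MET against WT was 1.72 ± 0.31, adjusted p = 0.00160, and its call in NFE2L2_MET against WT (1.02 ± 0.32, adjusted p = 0.0309) was lost without NFE2L2_MET replicate 3, WT replicate 3, WT replicate 1 or WT replicate 2 (adjusted p up to 0.139) and under 3 other settings (up to 0.0706, without the 3 added libraries). With NFE2L2 added to CTNNB1_MET it fell (-1.85 ± 0.31, adjusted p = 3.60e-04). In the CTNNB1_MET libraries Ddx3y stood at 44.8 to 60.1 CPM and Xist at 0.306 to 0.574 CPM, within the range of the other libraries.

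The 4 male-biased members, Cyp2d9, Cyp2u1, Cyp4a12a and Cyp4a12b, were lower in CTNNB1_NFE2L2_MET against WT in 4 of 4 cases (median -1.49), where 23.4% of all genes were. In CTNNB1_MET 2 were lower (median -0.68; 6.22% of all genes), in CTNNB1_NFE2L2 1 was lower and 1 higher (median 0.01; 24.2% and 24.5% of all genes), and in NFE2L2_MET 1 was lower (median -0.75; 9.89% of all genes). Over all alternatives the number lower stayed at 4 in CTNNB1_NFE2L2_MET, and ranged from 0 to 3 in CTNNB1_MET (0 without CTNNB1_MET replicate 1), 1 to 2 in CTNNB1_NFE2L2 and 0 to 2 in NFE2L2_MET. Among genes on which sex-biased P450 expression depends, the repressor Bcl6 averaged 13.6 ± 4.42, 12.3 ± 2.87, 11.3 ± 4.45 and 21.5 ± 7.69 CPM in CTNNB1_NFE2L2_MET, CTNNB1_MET, CTNNB1_NFE2L2 and NFE2L2_MET and 46.0 ± 37.2 CPM in WT (SD, n = 3 each). The call of Bcl6 in CTNNB1_MET against WT (-1.90 ± 0.52, adjusted p = 0.0285) was lost without CTNNB1_MET replicate 1, WT replicate 1, CTNNB1_MET replicate 3 or CTNNB1_MET replicate 2 (adjusted p up to 0.104) and under 3 other settings (up to 0.125, in a fit of only the libraries compared). Its female-biased counterpart Cux2 averaged 2.71 ± 0.450 CPM in CTNNB1_MET and 1.62 ± 1.48 CPM in WT (0.71 ± 0.96, adjusted p = 0.672).

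**Figure D5:**
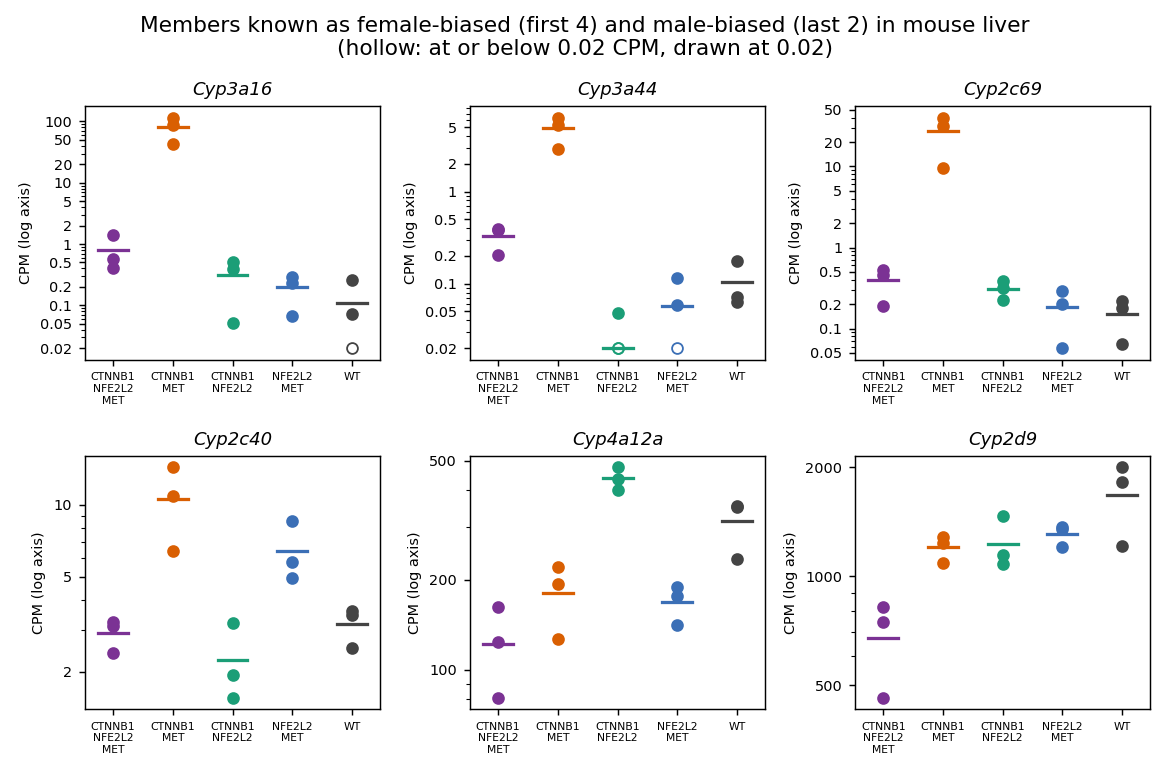
CPM per library (log axes, each panel with its own range) of 4 members known as female-biased and 2 known as male-biased. Points are libraries, lines are means of 3, and hollow points at 0.02 CPM stand for values at or below it. For the first 3 genes the CTNNB1_MET libraries lie above all others, and Cyp4a12a is highest in CTNNB1_NFE2L2.

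Cyp4a12a, the male-biased hydroxylase that makes a vasoactive eicosanoid from arachidonic acid (chromosome 4, 115299046 to 115332815), had 80.8, 124 and 162 CPM in CTNNB1_NFE2L2_MET, 127, 194 and 222 in CTNNB1_MET, 435, 399 and 476 in CTNNB1_NFE2L2, 189, 142 and 177 in NFE2L2_MET, and 351, 235 and 354 CPM in WT. It fell in CTNNB1_NFE2L2_MET against WT (-1.36 ± 0.25, adjusted p = 4.57e-04) and against CTNNB1_NFE2L2 (-1.84 ± 0.25, adjusted p = 2.45e-04). CTNNB1_NFE2L2 lay above all other libraries without passing against WT (0.48 ± 0.25, adjusted p = 0.125). The falls in CTNNB1_MET (-0.79 ± 0.25, adjusted p = 0.0410) and NFE2L2_MET (-0.89 ± 0.25, adjusted p = 0.0194) were lost, the first with each of 9 libraries left out in turn (adjusted p up to 0.161, without CTNNB1_MET replicate 1) and under 2 other settings (up to 0.0616, with no low-count filter) and the second without NFE2L2_MET replicate 2, WT replicate 1, WT replicate 3 or NFE2L2_MET replicate 3 (adjusted p up to 0.0741).

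Its close copy Cyp4a12b (chromosome 4, 115411624 to 115439034) had 3.23, 4.76 and 3.89 CPM in CTNNB1_NFE2L2_MET, 7.05, 5.46 and 11.9 in CTNNB1_MET, 204, 156 and 185 in CTNNB1_NFE2L2, 12.02, 4.52 and 7.10 in NFE2L2_MET, and 12.9, 9.31 and 14.4 CPM in WT. Every CTNNB1_NFE2L2 library exceeded the highest of the others more than 10 times. Cyp4a12b rose 14.9-fold in CTNNB1_NFE2L2 against WT (3.90 ± 0.33, adjusted p = 9.70e-07) and was lower in CTNNB1_NFE2L2_MET than in CTNNB1_NFE2L2 (-5.51 ± 0.36, adjusted p = 1.77e-06) and than in WT (-1.61 ± 0.35, adjusted p = 0.00175). CTNNB1_MET (-0.56 ± 0.33, adjusted p = 0.269) and NFE2L2_MET (-0.62 ± 0.33, adjusted p = 0.198) did not pass against WT. The ratio of Cyp4a12b to Cyp4a12a counts was 0.389 to 0.468 in CTNNB1_NFE2L2 and 0.0241 to 0.0635 in the 12 other libraries. The transcripts share 49.4% (Cyp4a12b) and 48.9% (Cyp4a12a) of their 50-base runs, so the counted reads come from the rest.

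The PPARα-responsive fatty acid hydroxylases spread widely between libraries. Cyp4a10 had 23.3, 6.59 and 6.32 CPM in CTNNB1_NFE2L2_MET, 11.5, 37.6 and 32.1 in CTNNB1_MET, 2.17, 5.38 and 15.7 in CTNNB1_NFE2L2, 35.8, 8.72 and 8.82 in NFE2L2_MET, and 10.9, 52.6 and 32.0 CPM in WT. Cyp4a14 had 28.3, 3.89 and 3.36 CPM in CTNNB1_NFE2L2_MET, 1.96, 7.44 and 5.53 in CTNNB1_MET, 1.35, 2.82 and 6.50 in CTNNB1_NFE2L2, 10.5, 0.865 and 1.66 in NFE2L2_MET, and 1.58, 18.9 and 17.8 CPM in WT. For both genes the groups overlapped in all 7 comparisons, and neither passed in any of them. Against WT the values for Cyp4a10 were -1.41 ± 0.87, adjusted p = 0.205 in CTNNB1_NFE2L2_MET, -0.24 ± 0.84, adjusted p = 0.879 in CTNNB1_MET, -2.06 ± 0.90, adjusted p = 0.0819 in CTNNB1_NFE2L2 and -0.84 ± 0.86, adjusted p = 0.516 in NFE2L2_MET. Those for Cyp4a14 were -0.12 ± 1.07, adjusted p = 0.939 in CTNNB1_NFE2L2_MET, -1.37 ± 1.13, adjusted p = 0.454 in CTNNB1_MET, -1.86 ± 1.16, adjusted p = 0.209 in CTNNB1_NFE2L2 and -1.55 ± 1.14, adjusted p = 0.362 in NFE2L2_MET. Cyp4a32, a closely related gene, had 27.9, 21.9 and 36.7 CPM in CTNNB1_NFE2L2_MET, 62.3, 109 and 124 in CTNNB1_MET, 26.7, 40.4 and 81.1 in CTNNB1_NFE2L2, 38.0, 36.7 and 22.8 in NFE2L2_MET, and 104.98, 102.7 and 192 CPM in WT. It fell against WT in CTNNB1_NFE2L2_MET (-2.21 ± 0.43, adjusted p = 0.00119) and NFE2L2_MET (-2.04 ± 0.43, adjusted p = 0.00601), and with NFE2L2 added to CTNNB1_MET (-1.77 ± 0.43, adjusted p = 0.00765). The call in CTNNB1_NFE2L2 (-1.44 ± 0.42, adjusted p = 0.0146) was lost without WT replicate 3 or CTNNB1_NFE2L2 replicate 2 (adjusted p up to 0.0648) and under 2 other settings (up to 0.0752, without the 3 added libraries). Cyp4a31, a member through CTNNB1_MET alone, rose there against WT (2.49 ± 0.41, adjusted p = 6.67e-04), to 3.51 ± 0.793 CPM in CTNNB1_MET, against 0.614 ± 0.222 CPM in WT (SD, n = 3 each). The gene Ppara itself gave -0.94 ± 0.15, adjusted p = 8.70e-05 in CTNNB1_NFE2L2_MET and -1.37 ± 0.15, adjusted p = 2.88e-06 in CTNNB1_NFE2L2 against WT.

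The 5 Cyp4f members, hydroxylases of leukotrienes and vitamin E side chains on chromosome 17, held 1 gene that went against the rest. Cyp4f16 (chromosome 17, 32536558 to 32551798) had 17.7, 13.7 and 12.9 CPM in CTNNB1_NFE2L2_MET, 12.7, 9.99 and 9.71 in CTNNB1_MET, 6.76, 8.73 and 7.84 in CTNNB1_NFE2L2, 7.66, 6.32 and 6.64 in NFE2L2_MET, and 1.58, 2.08 and 1.60 CPM in WT. All WT libraries lay below all 12 transgenic libraries. Its rise against WT was 3.06 ± 0.19, adjusted p = 1.22e-08 in CTNNB1_NFE2L2_MET, 2.61 ± 0.19, adjusted p = 3.34e-07 in CTNNB1_MET, 2.14 ± 0.19, adjusted p = 4.54e-07 in CTNNB1_NFE2L2 and 1.96 ± 0.20, adjusted p = 4.50e-06 in NFE2L2_MET. CTNNB1_NFE2L2_MET was above NFE2L2_MET (1.10 ± 0.17, adjusted p = 1.59e-04) and CTNNB1_NFE2L2 (0.93 ± 0.16, adjusted p = 9.73e-04), while the call against CTNNB1_MET (0.45 ± 0.16, adjusted p = 0.0409) was lost with each of 6 libraries left out in turn (adjusted p up to 0.204, without CTNNB1_NFE2L2_MET replicate 1) and under 4 other settings (up to 0.240, on the single-strand counts). Cyp4f16 shares 24.8% of its 50-base runs with Cyp4f37, which had 3 counts over all 15 libraries.

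Its neighbour Cyp4f17 (chromosome 17, 32506050 to 32530143) fell against WT, with -1.07 ± 0.15, adjusted p = 3.59e-05 in CTNNB1_NFE2L2_MET, -0.75 ± 0.15, adjusted p = 0.00338 in CTNNB1_MET, -0.90 ± 0.15, adjusted p = 1.94e-04 in CTNNB1_NFE2L2 and -0.93 ± 0.15, adjusted p = 5.21e-04 in NFE2L2_MET. Cyp4f14, which shortens the vitamin E side chain, had 109, 234 and 221 CPM in CTNNB1_NFE2L2_MET, 391, 434 and 472 in CTNNB1_MET, 294, 247 and 346 in CTNNB1_NFE2L2, 282, 269.8 and 309 in NFE2L2_MET, and 475, 334 and 438 CPM in WT. It fell in CTNNB1_NFE2L2_MET against WT (-1.15 ± 0.23, adjusted p = 7.83e-04) and against CTNNB1_MET (-1.20 ± 0.23, adjusted p = 0.00109), while CTNNB1_MET against WT gave 0.06 ± 0.23, adjusted p = 0.893. Cyp4f13 had 69.4, 74.7 and 75.0 CPM in CTNNB1_NFE2L2_MET, 93.5, 106.1 and 120.2 in CTNNB1_MET, 102.7, 104.8 and 126 in CTNNB1_NFE2L2, 108, 113 and 108 in NFE2L2_MET, and 145, 139.8 and 125 CPM in WT. The CTNNB1_NFE2L2_MET libraries lay below all others. Its fall was -0.91 ± 0.11, adjusted p = 6.47e-06 in CTNNB1_NFE2L2_MET against WT. Smaller calls in CTNNB1_MET (-0.36 ± 0.11), CTNNB1_NFE2L2 (-0.30 ± 0.11) and NFE2L2_MET (-0.32 ± 0.11) were each lost, the first without CTNNB1_MET replicate 1, WT replicate 1, CTNNB1_MET replicate 2 or WT replicate 2 (adjusted p up to 0.147) and in a fit of only the libraries compared (0.106), the second without CTNNB1_NFE2L2 replicate 1, CTNNB1_NFE2L2 replicate 2, WT replicate 1 or WT replicate 2 (adjusted p up to 0.116) and under 3 other settings (up to 0.367, under total-count scaling) and the third with each of 9 libraries left out in turn (adjusted p up to 0.127, without WT replicate 1) and under 3 other settings (up to 0.0707, in a fit of only the libraries compared). Cyp4f15 fell in CTNNB1_NFE2L2_MET (-1.52 ± 0.17, adjusted p = 3.76e-06) and in CTNNB1_NFE2L2 (-1.13 ± 0.17, adjusted p = 6.51e-05) against WT.

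Cyp4v3, the counterpart of human CYP4V2, a fatty acid hydroxylase mutated in a crystalline retinal dystrophy (chromosome 8, 45304944 to 45333216), had 201, 246 and 295 CPM in CTNNB1_NFE2L2_MET, 404, 466 and 468 in CTNNB1_MET, 453, 496 and 535 in CTNNB1_NFE2L2, 509, 462 and 462 in NFE2L2_MET, and 641, 484 and 774 CPM in WT. The CTNNB1_NFE2L2_MET libraries lay below all others. The fall was -1.36 ± 0.17, adjusted p = 9.07e-06 against WT, -0.95 ± 0.17, adjusted p = 5.32e-04 with CTNNB1 added, -0.85 ± 0.17, adjusted p = 0.00110 with NFE2L2 added and -1.0003 ± 0.17, adjusted p = 6.54e-04 with MET added. In CTNNB1_NFE2L2 (-0.36 ± 0.16, adjusted p = 0.0862) and NFE2L2_MET (-0.41 ± 0.16, adjusted p = 0.0868) it did not pass against WT, and the call in CTNNB1_MET (-0.51 ± 0.16, adjusted p = 0.0461) was lost with each of 12 libraries left out in turn (adjusted p up to 0.185, without WT replicate 3) and under 3 other settings (up to 0.155, without the 3 added libraries). Cyp4b1, best known from lung, had 2.82, 6.01 and 4.48 CPM in CTNNB1_NFE2L2_MET, 7.66, 8.72 and 7.20 in CTNNB1_MET, 6.57, 8.94 and 8.61 in CTNNB1_NFE2L2, 7.43, 6.59 and 10.9 in NFE2L2_MET, and 5.68, 7.06 and 6.35 CPM in WT. None of its 4 comparisons with WT passed, and its lower level in CTNNB1_NFE2L2_MET than in NFE2L2_MET (-0.90 ± 0.24, adjusted p = 0.0107), CTNNB1_MET (-0.82 ± 0.24, adjusted p = 0.0170) and CTNNB1_NFE2L2 (-0.85 ± 0.24, adjusted p = 0.0181) was lost in each case, the first without NFE2L2_MET replicate 3 (adjusted p = 0.0657) and under 2 other settings (up to 0.0818, under total-count scaling), the second without CTNNB1_NFE2L2_MET replicate 1 or CTNNB1_MET replicate 2 (adjusted p up to 0.0750) and under 2 other settings (up to 0.0833, under total-count scaling) and the third without CTNNB1_NFE2L2_MET replicate 1, CTNNB1_NFE2L2 replicate 2 or CTNNB1_NFE2L2 replicate 3 (adjusted p up to 0.0762) and without the 3 added libraries (0.0621).

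The 8 members known to respond to CAR or PXR (Cyp2a5, Cyp2c29, Cyp2c37, Cyp2c50, Cyp2c54, Cyp2c55, Cyp3a11 and Cyp3a13) are given beside the shares of all genes lower and higher. In CTNNB1_NFE2L2_MET against WT 6 were lower and 2 higher (median log2 -1.97; 23.4% and 26.5% of all genes), and in CTNNB1_NFE2L2 4 lower and 2 higher (median -1.08; 24.2% and 24.5%). The share of higher members was thus near that of all genes in both. In NFE2L2_MET 3 were lower and 2 higher (median -0.91; 9.89% and 13.5%), and in CTNNB1_MET none was lower and 2 were higher (median -0.50; 6.22% and 11.0%). The higher ones were Cyp2a5 and Cyp2c55 in the 3 groups with S45Y-CTNNB1, and Cyp2a5 and Cyp3a13 in NFE2L2_MET. The 3 lower members in NFE2L2_MET became 0 without WT replicate 3, NFE2L2_MET replicate 2 or NFE2L2_MET replicate 3. The CAR gene Nr1i3 gave -1.28 ± 0.28, adjusted p = 0.00177 in CTNNB1_NFE2L2_MET and -0.97 ± 0.27, adjusted p = 0.0105 in CTNNB1_NFE2L2 against WT, and the PXR gene Nr1i2 gave -0.46 ± 0.18, adjusted p = 0.0441 in CTNNB1_NFE2L2_MET and -0.06 ± 0.18, adjusted p = 0.812 in CTNNB1_NFE2L2. The Nr1i2 call was lost with each of 9 libraries left out in turn (adjusted p up to 0.2505, without WT replicate 3) and under 5 other settings (up to 0.314, under total-count scaling).

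Of 15 regulators of P450 genes, 14 were tested. In CTNNB1_NFE2L2_MET against WT 11 were lower and 1 higher (median log2 -0.52), where 23.4% of all genes were lower and 26.5% higher, and in CTNNB1_NFE2L2 6 were lower and 1 higher (median -0.46; 24.2% and 24.5% of all genes). In CTNNB1_MET 1 was lower (median -0.08; 6.22% of all genes), and in NFE2L2_MET 2 were lower (median -0.35; 9.89%), with none higher in either. The 1 higher gene was Ahr. Total-count scaling gave 6 lower regulators in CTNNB1_NFE2L2_MET and 7 in NFE2L2_MET against WT. Hnf4a, the nuclear receptor that maintains hepatocyte gene expression, averaged 560.1 ± 30.1 CPM in CTNNB1_NFE2L2_MET, 905 ± 8.83 CPM in CTNNB1_MET, 624 ± 88.3 CPM in CTNNB1_NFE2L2, 701 ± 72.9 CPM in NFE2L2_MET and 931 ± 175 CPM in WT (SD, n = 3 each). Cebpa, which acts beside it, fell in CTNNB1_NFE2L2_MET (-1.09 ± 0.19, adjusted p = 2.39e-04) and in CTNNB1_NFE2L2 (-1.05 ± 0.19, adjusted p = 3.69e-04) against WT.

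Of 13 genes for enzymes that give P450 proteins electrons and haem, 4 were higher and 1 lower in CTNNB1_NFE2L2_MET against WT (median log2 0.05), where 26.5% of all genes were higher and 23.4% lower, and 9 were higher and 2 lower in CTNNB1_NFE2L2 (median 0.62; 24.5% and 24.2% of all genes). In CTNNB1_MET none was higher and 1 lower (median -0.02; 11.0% and 6.22%), and in NFE2L2_MET none was higher and 3 lower (median -0.03; 13.5% and 9.89%). Without CTNNB1_NFE2L2_MET replicate 2 or 3 the higher genes in CTNNB1_NFE2L2_MET against WT numbered 2. Por, the P450 oxidoreductase, had 477, 391 and 447 CPM in CTNNB1_NFE2L2_MET, 850.0, 1076 and 1061 in CTNNB1_MET, 646, 1165 and 1136 in CTNNB1_NFE2L2, 662, 603 and 520.3 in NFE2L2_MET, and 536, 845 and 537 CPM in WT. It was lower in CTNNB1_NFE2L2_MET than in CTNNB1_MET (-1.18 ± 0.22, adjusted p = 8.26e-04) and CTNNB1_NFE2L2 (-1.16 ± 0.22, adjusted p = 0.00162), and did not pass against WT (-0.54 ± 0.22, adjusted p = 0.05003). Alas1, the first and limiting enzyme of haem synthesis, averaged 184 ± 14.2, 424 ± 31.3, 369 ± 152 and 507 ± 35.4 CPM in CTNNB1_NFE2L2_MET, CTNNB1_MET, CTNNB1_NFE2L2 and NFE2L2_MET and 415 ± 346 CPM in WT (SD, n = 3 each).

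Of 13 P450 genes of families above these, which act mainly on sterols, bile acids and retinoids, 8 were lower and 2 higher in CTNNB1_NFE2L2_MET against WT (median log2 -0.87), where 23.4% of all genes were lower and 26.5% higher. In CTNNB1_MET 3 were lower and 1 higher (median -0.83; 6.22% and 11.0% of all genes), in CTNNB1_NFE2L2 5 lower and 3 higher (median -0.71; 24.2% and 24.5%), and in NFE2L2_MET 3 lower and 2 higher (median -0.19; 9.89% and 13.5%). The shares of higher genes in CTNNB1_NFE2L2 and NFE2L2_MET were near those of all genes. Without 1 library the lower genes numbered as few as 5 in CTNNB1_NFE2L2_MET (without CTNNB1_NFE2L2_MET replicate 2), 1 in CTNNB1_MET (without CTNNB1_MET replicate 3), 3 in CTNNB1_NFE2L2 (without WT replicate 2) and 1 in NFE2L2_MET. The oxysterol hydroxylase Cyp7b1, a male-biased gene, averaged 85.9 ± 33.1 CPM in CTNNB1_NFE2L2_MET and 647 ± 14.6 CPM in WT (SD, n = 3 each; -2.91 ± 0.37, adjusted p = 2.88e-05).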

How the data were processed

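The authors deposited a table of gene counts for each of the 15 libraries. Per the submitters' processing notes, Trimmomatic, STAR and the mm10 assembly were used. Tool versions, annotation release and read length were not given in the sources used here. RNA isolation used the RNeasy Mini kit (Qiagen), and library preparation was Illumina's standard one, per the labels.

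The unstranded counts were used, since 49.7 to 49.9% of stranded counts lay on the first strand. Rows for unmapped, multimapping (4.81 to 6.45%), unassigned (6.85 to 9.74%) and ambiguous reads (1.48 to 1.96%) stayed out of library sizes. R 4.3.3 with edgeR 4.0.16 fitted all 15 libraries with 1 coefficient per group after TMM scaling and filterByExpr, and the quasi-likelihood F test was adjusted by Benjamini-Hochberg over 14098 genes with a threshold of 0.05. Values are log2 fold changes ± standard error, the error taken from the F statistic, and levels are TMM-adjusted CPM. The test step was tried on simulated counts. Alternatives were RLE size factors, total-count scaling, no low-count filter, single-strand counts, DESeq2 1.42.0, only the libraries compared, a term for or the omission of the 3 libraries whose file labels say that they were added (replicate 3 of WT, CTNNB1_NFE2L2_MET and CTNNB1_MET), and leaving out each library.

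Replicate numbers follow sample order. In the 15 pairs of replicates the chi-square per gene was 13.2 to 108, so none was a duplicate. Gene lengths and transcripts came from GENCODE vM21 (GRCm38), and promoters from RefSeq GRCm38.p6, which matched 40 of the 54 members. Both describe C57BL/6J, not FVB/NJ. Members and gene lists were chosen with earlier results of these data known. Values in every library are given for the 4 called members with the largest change in each direction and comparison (mean of at least 10 CPM), the most abundant member of each subfamily, and a set of well-known members, and also for Cyp2c40, Cyp2c69, Cyp3a44, Cyp4f16 and Cyp2s1 or other members where their group pattern is described. The cell type markers were also listed for cholangiocytes, endothelium, T and NK cells, B cells and neutrophils, whose summed levels in CTNNB1_NFE2L2_MET and WT were 58.1 to 79.3 and 57.9 to 146 CPM, 128 to 149.9 and 139 to 179.5 CPM, 3.70 to 5.43 and 1.15 to 1.87 CPM, 2.61 to 3.94 and 0.962 to 1.42 CPM, and 1.61 to 4.97 and 0.719 to 4.39 CPM.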

Additional observations from a re-analysis of the deposited data

How the results depend on the processing

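Of 378 pairs of member and comparison, 218 were called. With each library left out in turn, 160 kept their call each time and 58 lost it at least once. Under the other settings (RLE size factors, total-count scaling, no low-count filter, single-strand counts, DESeq2, only the libraries compared, and the term for or omission of the 3 added libraries) 160 kept it throughout and 58 lost it at least once. No called member changed sign. With 1 library left out, the number of lower members ranged from 4 to 14 in CTNNB1_MET against WT (11 with all libraries) and from 7 to 19 in NFE2L2_MET against WT (15 with all libraries). The lowest counts came without CTNNB1_MET replicate 1 and without NFE2L2_MET replicate 2 or 3. Total-count scaling gave 16 lower members in CTNNB1_NFE2L2_MET against NFE2L2_MET in place of 25. It moved the median log2 of all genes to 0.38 in that comparison, 0.26 against CTNNB1_MET, 0.22 in CTNNB1_NFE2L2_MET against WT, 0.17 in CTNNB1_NFE2L2 against WT and -0.13 in NFE2L2_MET against WT. The other counts of members stayed within 1.5 times of those reported. Outside the members, the haem enzyme gene Ppox gave a log2 of 0.34 in place of -0.03 in CTNNB1_NFE2L2_MET against NFE2L2_MET under total-count scaling. No paired analysis was possible because replicate numbers here only follow sample order and nothing in the labels links libraries of different groups. Depth limits Cyp3a16, Cyp3a44 and Cyp2c69 outside CTNNB1_MET, where libraries held few counts, and shared sequence limits close copies.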
